A study of Mus musculus with 24 samples.

Results

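The genes described here encode the proteins of the cytosolic ribosome. They are the 75 rows of a mouse gene count table whose symbol has the form of a large subunit (Rpl) or small subunit (Rps) protein, including the stalk genes Rplp0, Rplp1 and Rplp2 and the laminin receptor gene Rpsa. The pattern takes 45 large subunit and 30 small subunit genes among 17811 rows, and it uses names only, not measured values. All 75 passed the filter on low counts that kept 9328 genes, so every member was tested. The samples were epithelial cells of the jejunum of 4 male C57BL/6 mice aged 10 weeks, fed a regular chow without restriction and with no genetic change or treatment named in the labels. Antibodies to CD73 and CD26, surface proteins whose levels change with position on the villus, guided a flow cytometry sort into 6 zones. V1 is the most bottom zone, V2 the bottom, V3 the bottom-middle, V4 the middle, V5 the middle-tip and V6 the tip, and each mouse gave 1 bulk library per zone, 24 in all. Because a zone is set by the intensity of stains, its place on the villus is inferred from the sort, and a library is a pool of sorted cells.

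A ribosome is built from a small subunit, which holds the decoding site, and a large subunit, which forms peptide bonds. Each of its proteins is needed in about equal number, so the genes of the family are used together in growing cells. Many of their messenger RNAs begin with an uninterrupted run of pyrimidines (C or T in the DNA), called a 5′ terminal oligopyrimidine or TOP motif, through which translation of these messengers responds to growth signals that act through the kinase mTOR. Epithelial cells are made in the crypts, leave the cell cycle, climb the villus and are shed at its tip, so the zones order cells roughly by time since division.

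The starts of 5 members are shown because the TOP motif is the sequence feature for which these genes are known, and because the genes span the range of the slopes given below, from the steepest to the shallowest. Sequences are from RefSeq on GRCm38.p6 and run 5′ to 3′ on the strand of the gene, from 60 bases before the annotated start to 25 bases from it on. Capitals mark the run of pyrimidines that begins at the annotated start. Rpl35 lies at chr2:39005107-39005191, minus strand, Rps18 at chr17:33955641-33955725, minus strand, Rps6 at chr4:86857343-86857427, minus strand, Rplp2 at chr7:141447591-141447675, plus strand and Rpl28 at chr7:4792905-4792989, plus strand.
Rpl35: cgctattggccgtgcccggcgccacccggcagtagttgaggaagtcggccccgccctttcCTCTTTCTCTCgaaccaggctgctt
Rps18: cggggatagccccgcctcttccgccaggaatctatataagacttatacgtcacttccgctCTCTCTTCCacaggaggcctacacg
Rps6: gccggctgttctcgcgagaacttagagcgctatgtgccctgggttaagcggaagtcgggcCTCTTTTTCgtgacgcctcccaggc
Rplp2: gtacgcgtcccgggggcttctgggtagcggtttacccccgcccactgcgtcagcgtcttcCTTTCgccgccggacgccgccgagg
Rpl28: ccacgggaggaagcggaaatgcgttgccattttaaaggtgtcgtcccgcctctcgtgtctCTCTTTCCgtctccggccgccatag
Each of the 5 has a C at the annotated start, followed by between 4 and 10 further pyrimidines. They were taken from the 13 of 55 members with a matched promoter that have a C and at least 4 pyrimidines there. Their shared start therefore follows from the choice and says nothing about the other members.

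RefSeq promoters, 250 bases before to 50 bases after a start, were found for 55 of the 75 members, as 65 promoters. A C at the annotated start followed by at least 4 pyrimidines was present in 13 of the 55 genes. That is 13 of their 65 promoters, against 2.51% of 32851 mouse promoters of the same length. A run of 8 or more pyrimidines within 20 bases of the start was present in 27 of the 55 genes, in 43.08% of their promoters against 16.05% of all. The hexamer CTTTCC on the gene strand, which can lie inside such a run, occurred anywhere in the window in 23 genes (26 of 65 promoters, against 14.14% of all). CCGGAAG, the core bound by ETS family factors, was searched on both strands and occurred in 23 genes (36.92% against 8.86%). AAGATGG, the core of the YY1 motif, occurred on either strand in 9 genes (16.92% against 6.34%), and the GC box GGGCGG on either strand in 33 genes (39 of 65 promoters, against 35.66% of all). The TATA box in the form TATAAA on the gene strand was no more frequent than elsewhere (7.69% against 8.32%). The median slope was -0.1842 in members with a C-initiated run at the start and -0.1836 in those without. The widest gaps were for TATAAA, with -0.2013 in the 5 genes that hold it and -0.1822 in the others, and for AAGATGG, with -0.172 and -0.1845. These gaps were not tested. A match here is a string of letters and not a measured start site or a bound factor.

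Members were among the more abundant transcripts of the tissue. Levels are given as CPM, the count of unique molecular identifiers (UMIs, one per captured molecule) scaled to a common library size by TMM. The protocol counts 3′ ends, so a count does not grow with transcript length. The median member averaged 412 CPM over the 24 libraries, and the median of all tested genes averaged 22.7 CPM. Mean levels ran from 89.7 CPM for Rpl15 to 1968 CPM for Rplp0, a 21.9-fold range for proteins that are present in about equal number in the ribosome. The 5 most abundant members, among them Rplp0, Rps26, Rps14 and Rplp1, held 18.9% of the family's UMIs. The members lie on 19 chromosomes and have short coding sequences, with a median of 456 bases (138 to 1257) against 1281.5 bases over 8478 tested coding genes. Introns of ribosomal protein genes often carry small nucleolar RNAs, which guide chemical changes on ribosomal RNA, and 28 members (37.3%) contained 55 annotated snoRNA genes, against 2.08% of tested genes that contained any.

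Library totals lay between 806541 and 2266261 UMIs, of which 20381 to 127774 per library fell on the members. The lowest count of any member in any library was 48. The labelled epithelium was checked with marker lists, and none of the listed markers present in the table was at 0 in every library. Enterocyte markers summed to 19307 ± 6902 CPM (SD, n = 4) in V1 and 91969.6 ± 14469 in V6, and 12 of 15 rose and 1 fell. Goblet cell markers, which code for mucus proteins of the secretory cells, summed to 75214 ± 25341 CPM in V1 (49663 to 97535), 38129.9 ± 14435 in V2 and 12150 to 12501 on average in each of V3 to V6. All 11 goblet genes tested fell from bottom to tip. Stem and proliferation markers summed to 388 ± 109 CPM in V1 and 169.6 ± 18.7 in V6, and 8 of 13 fell. Of the other lists, 5 of 6 leukocyte genes rose, 5 of 10 enteroendocrine genes rose and 1 fell, 1 of 3 tuft genes rose and none of 8 Paneth genes was called. These counts are calls for the slope described below, where 22.8% of all tested genes fell and 22.1% rose. With 3 genes tested, the tuft count cannot be told from that share. The Paneth sum was 19379 ± 15792 CPM in V5, with 38495 in mouse 2. Erythroid and stromal markers summed to at most 86.0 and 16.4 CPM in any library. Mitochondrially encoded transcripts held 3.31 ± 0.886% of the UMIs of V1 libraries, 9.45 ± 2.87% of those of V4 and 8.10 ± 1.21% of those of V6. The part of these cell type differences in the slopes below was not tested. The 4 mice are separate animals, but the i7 index in a deposited column headed as a barcode nearly follows the mouse, so mouse and index cannot be told apart. Whether an index stands for a pool sequenced together is not stated in the header.

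Taken as a sum, the family was lower toward the tip in every mouse. Summed over the 75 genes, ribosomal protein transcripts made up 6.88, 6.73, 5.47 and 7.21% of UMIs in V1 of mice 1 to 4. The shares in the same order were 5.64, 5.33, 3.91 and 4.27% in V2, 4.01, 4.00, 2.92 and 3.24% in V3 and 3.53, 2.94, 1.77 and 2.53% in V4. They were 3.03, 4.09, 2.10 and 3.80% in V5 and 2.51, 2.35, 2.34 and 3.07% in V6. Every V1 library was above every V3, V4, V5 and V6 library, and within each mouse the share was lower at each step from V1 to V4. Means were 6.57 ± 0.763% (SD, n = 4) in V1, 4.79 ± 0.827% in V2, 3.54 ± 0.551% in V3, 2.69 ± 0.741% in V4, 3.26 ± 0.892% in V5 and 2.57 ± 0.345% in V6. The V1 share was 2.74, 2.86, 2.34 and 2.35 times the V6 share in mice 1 to 4. Part of this ratio is not particular to the family. With counts scaled by total UMIs, the median log2 difference of V6 against V1 was -0.33 over all tested genes and -1.30 in the members. In bulk samples, fewer cells of a type with high levels and less of these RNAs per cell cannot be told apart.

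**Figure D1:**
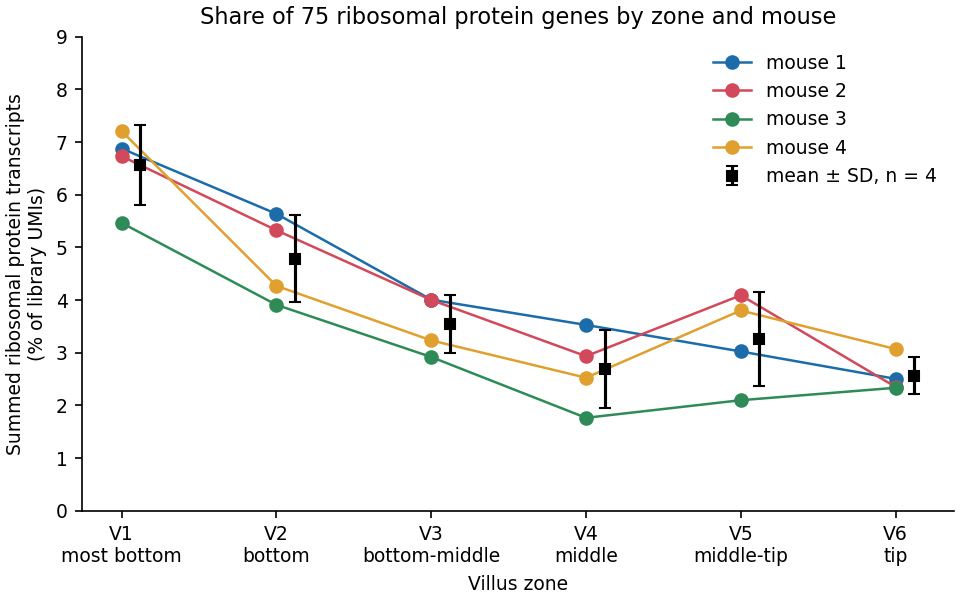
Percent of each library's UMIs on the 75 ribosomal protein genes (vertical axis) by villus zone (horizontal axis), one line per mouse, with black squares and bars for the mean ± SD of 4 mice. The mean share was 6.57% in V1 and 2.69% in V4, each mouse was lower at every step between them, and from V4 on the lines of the 4 mice take different courses.

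Gene by gene, 74 of the 75 members fell along the 6 zones and none rose, by edgeR's quasi-likelihood test of the slope of log2 expression per zone with a Benjamini-Hochberg adjusted p under 0.05 over all tested genes. The background was 22.8% of tested genes lower and 22.1% higher. The median member slope was -0.18 per zone, with a range of -0.26 to -0.12, while the median slope of all tested genes was -0.0047. Large and small subunit genes had the same median to the second decimal (-0.1842 and -0.1848). The tip stood at 51.0% of V1 in the median member, and in the single members at 36.3% to 63.2%. For V6 against V1, 72 members were lower and none higher (background 18.6% lower and 20.2% higher), with a median log2 difference of -0.97 and a range of -1.47 to -0.66. The 3 not called were Rplp1, Rps21 and Rpl35, with adjusted p-values of 0.148, 0.0863 and 0.0574 by edgeR, and with mouse as a block all 75 were called (background 24.7% lower and 26.7% higher). V6 was below V1 in all 4 mice for 74 members, against 28.4% of tested genes, and the exception was Rplp1. The highest V6 library was below the lowest V1 library for 70 members, against 16.5% of tested genes. The exceptions were Rplp1, Rps21, Rps24, Rpl28 and Rpl35.

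**Figure D2:**
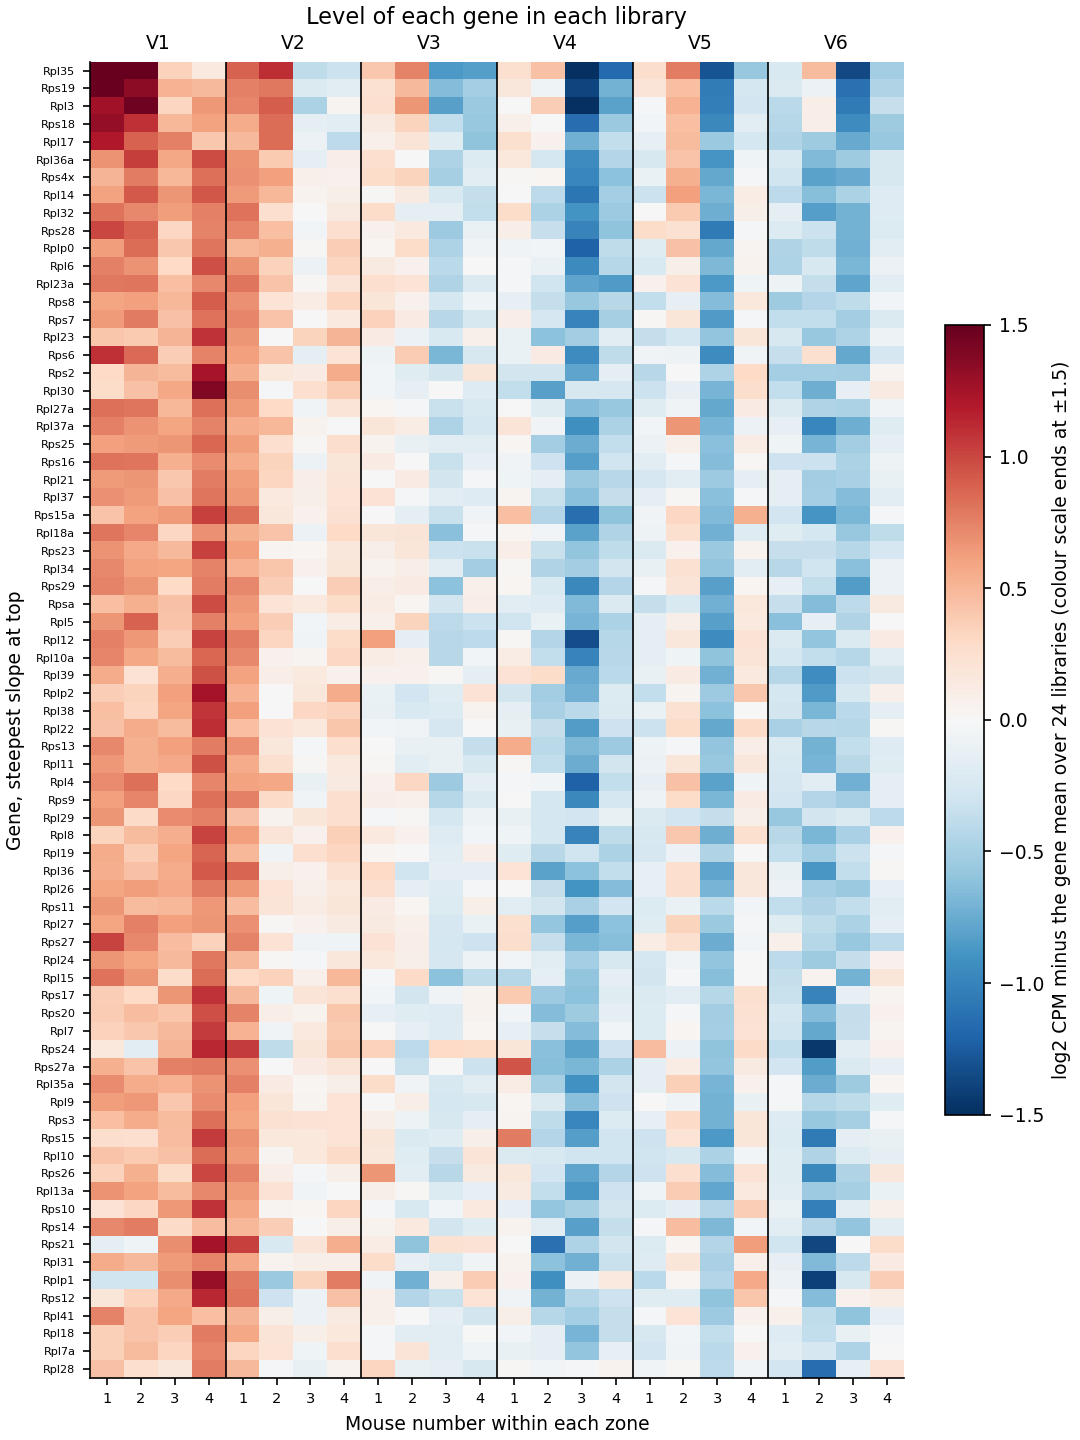
Level of 74 of the members (rows, steepest slope at the top) in each of the 24 libraries (columns, grouped by zone and numbered by mouse), as log2 CPM minus the gene's mean over all libraries, red above and blue below. Nearly all rows pass from red in V1 to blue in V4 to V6, the column of mouse 3 in V4 is the bluest, and the rows at the top are reddest in mice 1 and 2.

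The stalk genes code for the flexible arm of the large subunit that recruits translation factors, with Rplp0 at its base and Rplp1 and Rplp2 as paired acidic arms. Rplp0 (ENSMUSG00000067274, chr5:115559467-115563727, plus strand) was the most abundant member (coordinates here and below are whole genes on GRCm38). Its levels in mice 1 to 4 were 2860.1, 3311, 2449 and 3231 CPM in V1, 2623, 2679, 1878 and 2388 in V2 and 1896, 2253, 1349.8 and 1791 in V3. They were 1785, 1800.0, 801 and 1426 CPM in V4, 1642, 2519.8, 1088 and 1910.4 in V5 and 1355, 1419.6, 1129.5 and 1652 in V6. All V1 libraries were above all V6 libraries, and mouse 3 was lowest in each zone. Rplp0 fell with a slope of -0.20 ± 0.040 (SE), adjusted p = 3.53e-04 by edgeR. Rplp2 (ENSMUSG00000025508, chr7:141447370-141451585, plus strand) had 514, 501, 610.0 and 946 CPM in V1, 328, 275, 241 and 343 in V4 and 330.3, 220.1, 336 and 417 in V6. It fell with a slope of -0.18 ± 0.038 (SE), edgeR adjusted p = 4.86e-04, with mouse 4 highest in V1, V4 and V6.

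Rplp1 (ENSMUSG00000007892, chr9:61913284-61914542, minus strand) was the only member not called for the slope. Its levels in mice 1 to 4 were 826, 827, 1644 and 2507 CPM in V1, 1744, 690.0, 1279 and 1724 in V2 and 980.0, 617, 1081 and 1327 in V3. They were 1066, 536, 954 and 1126 CPM in V4, 765, 1038, 753 and 1502 in V5 and 958, 385, 863 and 1308 in V6. Mice 3 and 4 began high and ended lower, mouse 2 was lower in V6 than in V1, and mouse 1 was higher in V6 than in V1, so the zones overlapped. The slope was -0.14 ± 0.066 (SE) with an edgeR adjusted p of 0.0818. With mouse as a block the slope of -0.14 had an adjusted p of 0.0140, and with the block all 75 members fell (background 27.8% lower and 27.6% higher).

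Other abundant members fell as Rplp0 did. Rps26 (ENSMUSG00000025362, chr10:128624534-128626747, minus strand), which contacts the messenger upstream of the start codon, had 1711, 1944, 1627 and 2708 CPM in V1, 1519, 1108, 778 and 997 in V4 and 1189, 689, 984 and 1516 in V6. Rps14 (ENSMUSG00000024608, chr18:60747098-60778546, plus strand), a protein of the small subunit platform, had 2042, 2107, 1516 and 1718 CPM in V1, 1282, 1099, 708 and 968 in V4 and 1105, 915, 822 and 1108 in V6. For both the V1 libraries were above the V6 libraries. The slopes were -0.16 ± 0.046 (SE) for Rps26 (edgeR adjusted p = 0.00587) and -0.16 ± 0.035 (SE) for Rps14 (adjusted p = 7.94e-04).

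Among the 5 steepest slopes were those of Rpl35, Rps19, Rpl3 and Rps18. Rpl35 (ENSMUSG00000062997, chr2:39001580-39005624, minus strand), a protein near the exit of the peptide tunnel, had 1094, 1151, 419 and 364 CPM in V1, 390.2, 449, 95.3 and 147 in V4 and 282, 457, 129 and 229 in V6. Its V6 level in mouse 2 was above the V1 levels of mice 3 and 4, although V6 was below V1 within each mouse. The slope was -0.26 ± 0.10 (SE), edgeR adjusted p = 0.0399, and this call was lost when any 1 mouse was left out (adjusted p 0.0534 to 0.190). With mouse as a block the adjusted p was 1.50e-10. Rps19 (ENSMUSG00000040952, chr7:24884371-24889806, plus strand), the gene most often mutated in human Diamond-Blackfan anaemia, had 2157, 1965, 1113 and 1083 CPM in V1 and 664, 727, 355 and 567 in V6. It fell with a slope of -0.25 ± 0.063 (SE), edgeR adjusted p = 0.00265. Rpl3 (ENSMUSG00000060036, chr15:80077791-80091868, minus strand), which lies by the peptidyl transferase centre, had 1699, 1953, 889.6 and 1115 CPM in V1 and 537, 759, 340.2 and 559 in V6. It fell with a slope of -0.25 ± 0.071 (SE), edgeR adjusted p = 0.00746, or 0.0818 without mouse 1. Rps18 (ENSMUSG00000008668, chr17:33951999-33956001, minus strand), a protein of the small subunit head, had 1536, 1318, 875 and 938 CPM in V1 and 458, 657, 321 and 427 in V6. Its slope was -0.23 ± 0.053 (SE), edgeR adjusted p = 0.00116. In these 4 genes mice 1 and 2 stood above mice 3 and 4 in V1.

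The shallowest slopes belonged to Rpl28, Rpl7a, Rpl18, Rpl41 and Rps12. Rpl28 (ENSMUSG00000030432, chr7:4792874-4795066, plus strand), a large subunit protein found in animals but not in budding yeast, had 628, 548, 519 and 784 CPM in V1, 466, 447, 452 and 478 in V4 and 378, 208, 422 and 536 in V6. Mouse 4 in V6 lay above mouse 3 in V1, so the end zones overlapped, and V6 was below V1 within each mouse. Rpl28 fell with a slope of -0.12 ± 0.035 (SE), edgeR adjusted p = 0.00899, or 0.0714 without mouse 1. Rpl41 (ENSMUSG00000093674, chr10:128548114-128549305, minus strand), which codes for the shortest of the ribosomal proteins, had 1191, 949.9, 1065 and 971 CPM in V1 and 749, 544, 465 and 653 in V6 and fell with a slope of -0.14 ± 0.030 (SE), edgeR adjusted p = 8.06e-04. Rpl7a (ENSMUSG00000062647, chr2:26910764-26913318, plus strand) and Rpl18 (ENSMUSG00000059070, chr7:45715457-45720836, plus strand), both large subunit proteins, had the same slope to 2 decimals, -0.14 ± 0.025 (SE) and -0.14 ± 0.025 (SE). Their edgeR adjusted p-values were 1.39e-04 and 1.45e-04. Rps12 (ENSMUSG00000061983, chr10:23785183-23787275, minus strand) had 182, 204, 238 and 351 CPM in V1, 155, 98.3, 119 and 129 in V4 and 158, 102, 168 and 174 in V6, with its lowest mean in V4. Its slope was -0.14 ± 0.043 (SE), edgeR adjusted p = 0.0111.

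Members with roles beyond the ribosome followed the family. Rps6 (ENSMUSG00000028495, chr4:86854660-86857412, minus strand), the small subunit protein that is phosphorylated when mTOR signalling is active, had 485, 411, 293 and 381 CPM in V1, 213, 247, 118 and 174 in V4 and 179, 268, 134 and 191 in V6. It fell with a slope of -0.20 ± 0.043 (SE), edgeR adjusted p = 7.82e-04, with no overlap between V1 and V6. Rpsa (ENSMUSG00000032518, chr9:120127689-120132369, plus strand), also known as the laminin receptor, had 372, 394, 371 and 536 CPM in V1 and 215, 174, 207 and 300.4 in V6 and fell with a slope of -0.19 ± 0.032 (SE), edgeR adjusted p = 5.95e-05. Rps27a (ENSMUSG00000020460, chr11:29545846-29548109, minus strand), whose product is ubiquitin joined to a small subunit protein, had 433, 403, 505 and 514 CPM in V1, 574, 192, 186 and 215 in V4 and 245, 167, 257 and 274 in V6. The V4 library of mouse 1 was above every V1 library, while V6 was below V1 without overlap. Its slope was -0.17 ± 0.046 (SE), edgeR adjusted p = 0.00517.

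**Figure D3:**
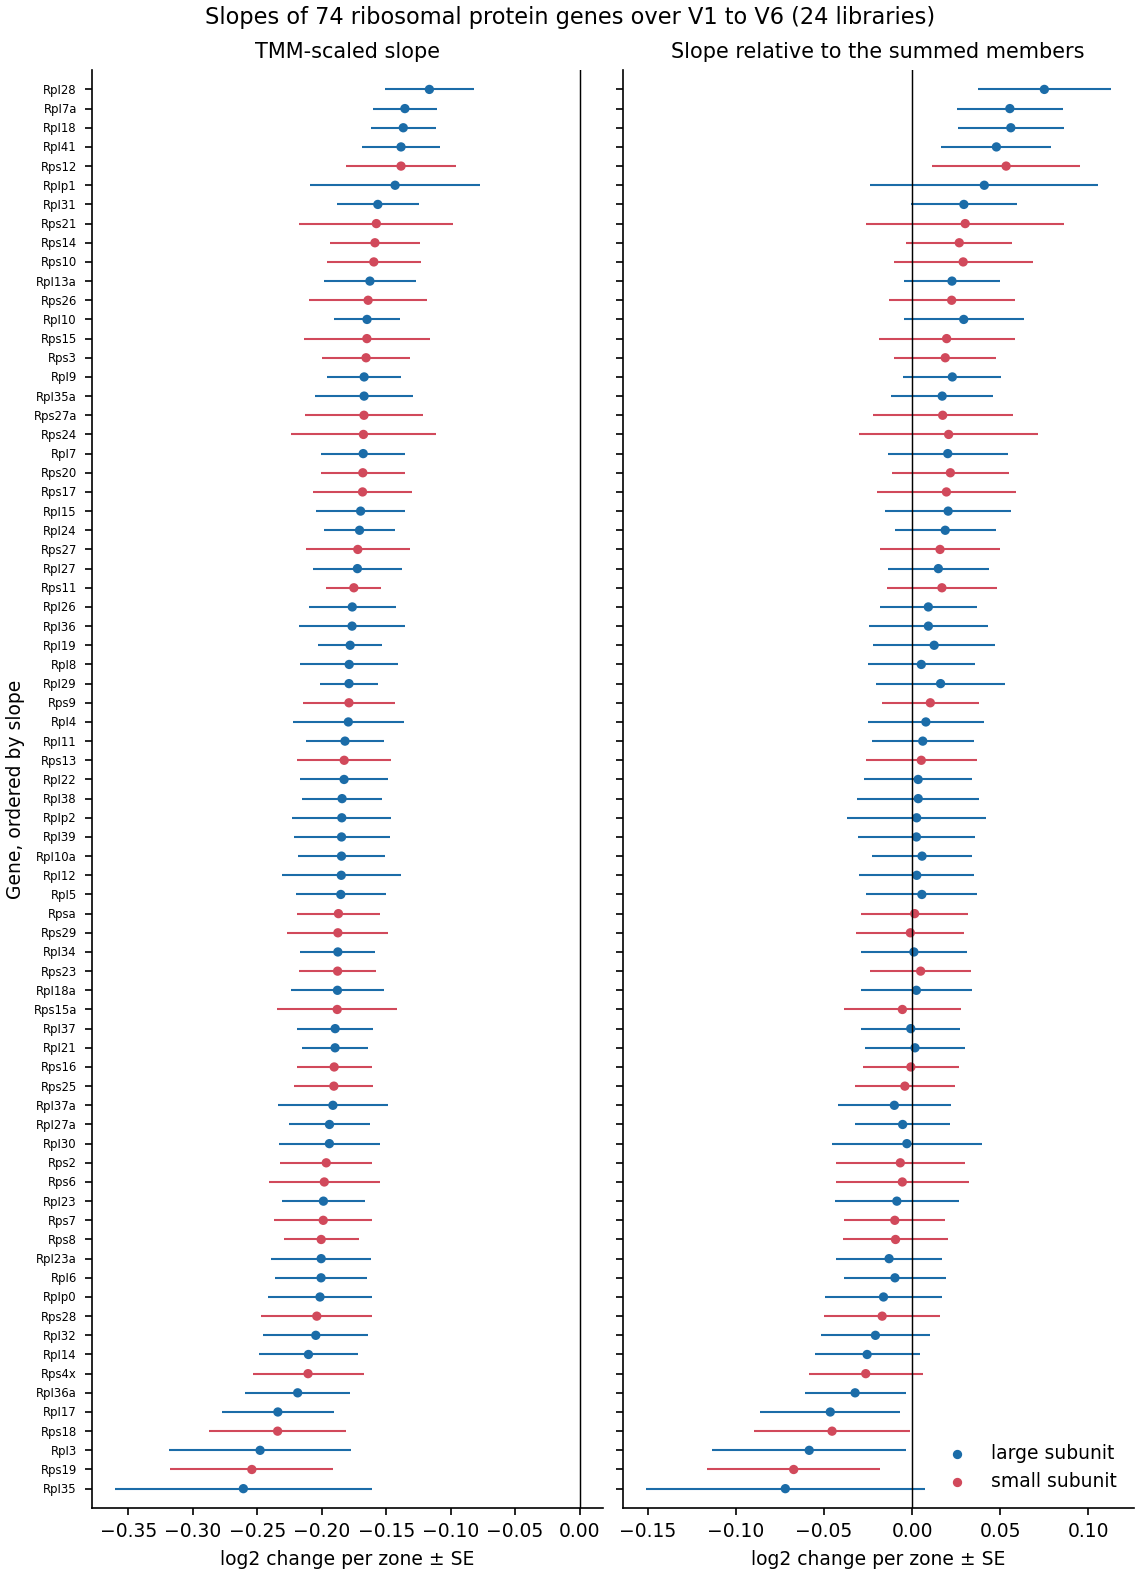
Slope of log2 expression per zone (horizontal axis, ± SE) for 74 of the members (vertical axis, ordered by slope), in blue for the large and red for the small subunit. On the left, scaled to the whole library, all lie below 0. On the right, with the summed members as library size, they lie between -0.072 and 0.075, around 0 because this scaling centres them there.

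V4 stood as far below V1 as the tip did. V4 was lower than V1 in 69 members and higher in none (background 17.5% lower and 19.0% higher), with a median log2 difference of -0.97, as for V6. With mouse as a block 73 were lower and none higher (background 24.8% lower and 25.6% higher). The 6 members not called without the block were Rplp1, Rpl28, Rps15, Rpl35, Rps24 and Rps27a. The mean level was lower at each step from V1 to V4 in 73 members, and the share of all tested genes with this course was not counted. Between V4 and V6, edgeR called none of the 75 (background 0.0% lower and 0.45% higher), and none had an unadjusted p under 0.05. With mouse as a block none was called either (background 0.0643% lower and 1.35% higher), and 1 had such a p. DESeq2 and limma-voom also called none. The median difference was -0.0012, with 38 members below 0 and 37 above (0.021 with the block, with 32 below and 43 above). It depended on the mice kept, from -0.10 without mouse 4 to 0.13 without mouse 1. In the fit of all mice without the block, single members ran from -0.43 to 0.27 with a median SE of 0.21. With the block they ran from -0.38 to 0.30 with a median SE of 0.14. Differences of these sizes at single genes were not called in either fit. The lowest mean was in V4 for 37 members and in V6 for 38, and the lowest zone of other genes was not counted. Fitted over V3 to V6 alone, where the goblet sum was level, no member was called, at a median slope of -0.057. Few genes of any kind were called lower there (background 0.0231% lower and 2.57% higher), so this count says little about the members. The fit with the block called none either, at a median of -0.056 (background 0.868% lower and 6.79% higher).

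No single step was called for any member in the fit without the block. From V1 to V2 edgeR called none of the 75 (background 0.0858% lower and 1.43% higher), and 14 had an unadjusted p under 0.05. The median difference was -0.35, and DESeq2 called 2. With mouse as a block 30 members fell and none rose (background 5.72% lower and 9.2% higher), led by Rps19 with -0.67 ± 0.13 (SE), adjusted p = 5.70e-04, and Rpl3 with -0.62 ± 0.13 (SE), adjusted p = 0.00102. V2 was below V1 for all 75 members in mice 2, 3 and 4, and for 36 in mouse 1. From V2 to V3 none was called (background 0.118% lower and 0.172% higher), 15 had an unadjusted p under 0.05, DESeq2 called none, and the median difference was -0.37. With the block 9 fell and none rose (background 1.79% lower and 3.0% higher), among them Rps29, a small subunit protein with a zinc finger, with -0.45 ± 0.12 (SE), adjusted p = 0.0185. V3 was below V2 for 75, 70, 73 and 74 members in mice 1 to 4. Over all tested genes such shares were not counted. Their median differences were 0.012 for V2 against V1 and -0.012 for V3 against V2.

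From V3 to V4 the median difference was -0.27, with none called by edgeR or DESeq2 (background 0.0% lower and 0.0643% higher) and 3 at an unadjusted p under 0.05. With the block 36 had such a p and again none was called (background 0.193% lower and 1.93% higher). The member means were then higher in V5 than in V4 for 72 genes and lower in V6 than in V5 for 73. Means of all tested genes were not counted in this way, and their median differences were -0.011 and 0.0090. Neither step passed the test for any member by edgeR with or without the block or by DESeq2. For V5 against V4 the background was 0.0% in either direction in both fits. For V6 against V5 it was 0.0% lower and 0.268% higher, or 0.0322% lower and 1.47% higher with the block. Median differences were 0.22 and -0.22, and none had an unadjusted p under 0.05 in either step (15 and 11 with the block). The median for V5 against V4 was 0.38 without mouse 1, 0.12 without mouse 2, 0.14 without mouse 4 and 0.15 without V4 and V5 of mouse 4. The median for V6 against V5 was -0.089 without mouse 2 and -0.14 without V4 and V5 of mouse 4. The mice differed here. V5 was above V4 for 10, 69, 50 and 74 members in mice 1 to 4, where 48.8% to 52.9% of all tested genes were above. V6 was below V5 for 55, 72, 14 and 68 members, and the share of all tested genes below was not counted. Nt5e, which codes for the sorted protein CD73, had 48.8 and 76.7 CPM in V4 and V5 of mouse 1, 8.94 and 22.1 in mouse 2, and 40.2 and 63.6 in mouse 3. In mouse 4 it had 27.2 and 20.9 CPM, against the labelled order of these zones. Without these 2 libraries of mouse 4, 9558 genes were tested. In that fit 74 members were called for the slope (background 21.2% lower and 20.8% higher). For V6 against V1, 71 were called (background 18.2% lower and 19.2% higher). For V4 against V1, 66 were called, and the share of all tested genes was not counted.

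**Figure D4:**
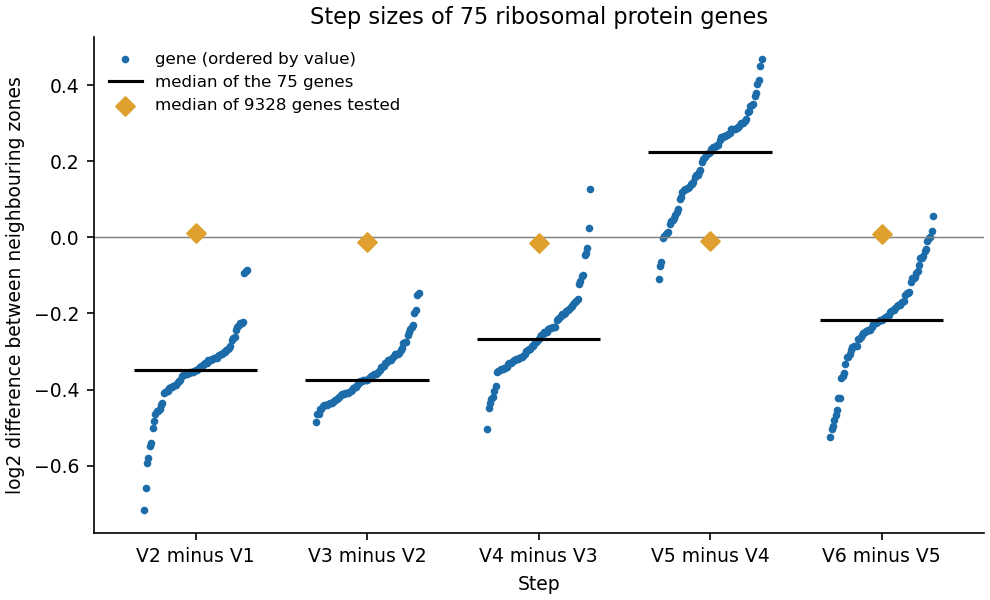
Log2 difference between neighbouring zones (vertical axis) for each member, one dot per gene in order of value within each of the 5 steps (horizontal axis), with a black line at the member median and a diamond at the median of the 9328 tested genes. Most members lie below 0 in the first 3 steps (medians -0.35, -0.37 and -0.27), above it from V4 to V5 (0.22) and below it from V5 to V6 (-0.22), while the median of all tested genes stays near 0.

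The members kept close to one another. In a second fit the summed count of the 75 genes served as library size, so that a slope measures departure from the family. This scaling centres the members near 0 by construction, so only their spread around 0 is a result. No member was called (background 1.06% lower and 64.0% higher), and none had an unadjusted p under 0.05. These relative slopes ran from -0.072 (Rpl35) to 0.075 (Rpl28) per zone, with an SD of 0.027 over genes against a median SE of 0.032. They were within 0.05 of 0 in 67 members. Departures up to this size were not detectable at single genes, since even Rpl28, at 0.075 ± 0.038 (SE), had an edgeR adjusted p of 0.0809. With mouse as a block 3 members were called (background 1.58% lower and 70.6% higher). Rpl35 departed by -0.069 (adjusted p = 0.0348 by edgeR) and Rps19 by -0.065 (adjusted p = 0.0374). Rpl28 departed by 0.069 (adjusted p = 0.0351). With the block, 7 of the 75 had an unadjusted p under 0.05. Because most genes are called under this scaling, the adjustment over all genes corrects the members only mildly. So few calls among 75 members are weak evidence that these genes depart from the family. Slope was only weakly related to level (Spearman's rho -0.21 over 75 genes) and to coding length (rho -0.16), described here without a test because genes are not independent. Members also deviated together within a zone. The deviation of a member from its zone mean correlated over the 24 libraries with that of the summed other members, with a median r of 0.819 (0.174 to 0.973), where other tested genes had a median of -0.0155 and a 95th percentile of 0.634. These points share libraries and their scaling.

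The mice differed in level, and not all members in the same direction. Averaged over zones on the log scale, 60 members were lowest in mouse 3, 14 in mouse 2 and 1 in mouse 4. The highest mouse was mouse 1 for 37 members, mouse 4 for 23 and mouse 2 for 15. The lowest and highest mouse of other tested genes were not counted, so these counts are not shown to be particular to the family. The range over mice was 0.53 in log2 in the median member, and 0.43 in the median of 1651 tested genes at or above the level of the lowest member. The widest ranges, looked up after the values were seen, formed 2 opposite patterns. Rpl35 averaged 484, 612, 179 and 227 CPM in mice 1 to 4, Rpl3 878, 1130.4, 421 and 612 and Rps19 1046, 1087, 495 and 643. These were higher in mice 1 and 2 than in mice 3 and 4. Rplp1 averaged 1018, 651, 1059.9 and 1528 CPM and Rps21, a small subunit protein, 260.3, 167, 253 and 334. These were lowest in mouse 2 and highest in mouse 4. The i7 index nearly follows the animal, and what sets the mice apart was not tested.

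Genes that carry ribosomal protein sequences but fall outside the naming rule did not all follow the family. Fau, which codes for a ubiquitin-like protein joined to the small subunit protein eS30, had 1020.3, 744, 1041 and 1319 CPM in V1, 1504, 795, 1128 and 1230.3 in V2 and 1201, 965, 1209 and 1266 in V3. It had 1104, 1039, 1022 and 1155 CPM in V4, 1166, 1517, 898 and 1096 in V5 and 1153, 855, 1061 and 1233 in V6. The zones overlapped throughout, with mouse 2 lowest in V1 and highest in V5. The slope of Fau was 0.0063 ± 0.032 (SE), edgeR adjusted p = 0.894, while its slope relative to the family was 0.20 ± 0.040 (SE), adjusted p = 1.58e-04. Most tested genes, 64.0%, were also higher relative to the family, so by this measure Fau behaved as the majority of genes did.

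Of the 10 listed paralogues and fusion genes, 7 were tested, 5 fell and none rose (median slope -0.14, background 22.8% lower and 22.1% higher). Rps27l, a paralogue of Rps27 induced by p53, had 265 ± 41.8 CPM (SD, n = 4) in V1 and 197 ± 32.5 in V6. It fell by 0.07 ± 0.027 (SE) per zone in log2 (edgeR adjusted p = 0.0357), less than the summed family, with a relative slope of 0.12 ± 0.045 (SE), adjusted p = 0.0234. Rpl22l1, the paralogue of Rpl22, went from 246 ± 19.4 to 122 ± 21.3 CPM with a slope of -0.19 ± 0.027 (SE), edgeR adjusted p = 8.03e-06. Rpl36al had a slope of -0.18 ± 0.028 (SE), adjusted p = 1.64e-05, and Rpl7l1 one of -0.14 ± 0.036 (SE), adjusted p = 0.00281. The slope of Rps4l was -0.047 ± 0.045 (SE), adjusted p = 0.414. Ribosomal protein genes have many processed pseudogenes of nearly the same sequence. The table held 212 rows named as ribosomal protein pseudogenes, and 54 members had a row named after them. Of these rows 119 were tested, 99 fell and none rose, with a median slope of -0.19. Their summed share was 1.62 ± 0.371% of UMIs (SD, n = 4) in V1 and 0.641 ± 0.0981% in V6. How reads that match a gene and its copies were assigned is not given in the sources used here, so the levels of these members are uncertain by the reads that the copies took.

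**Figure D5:**
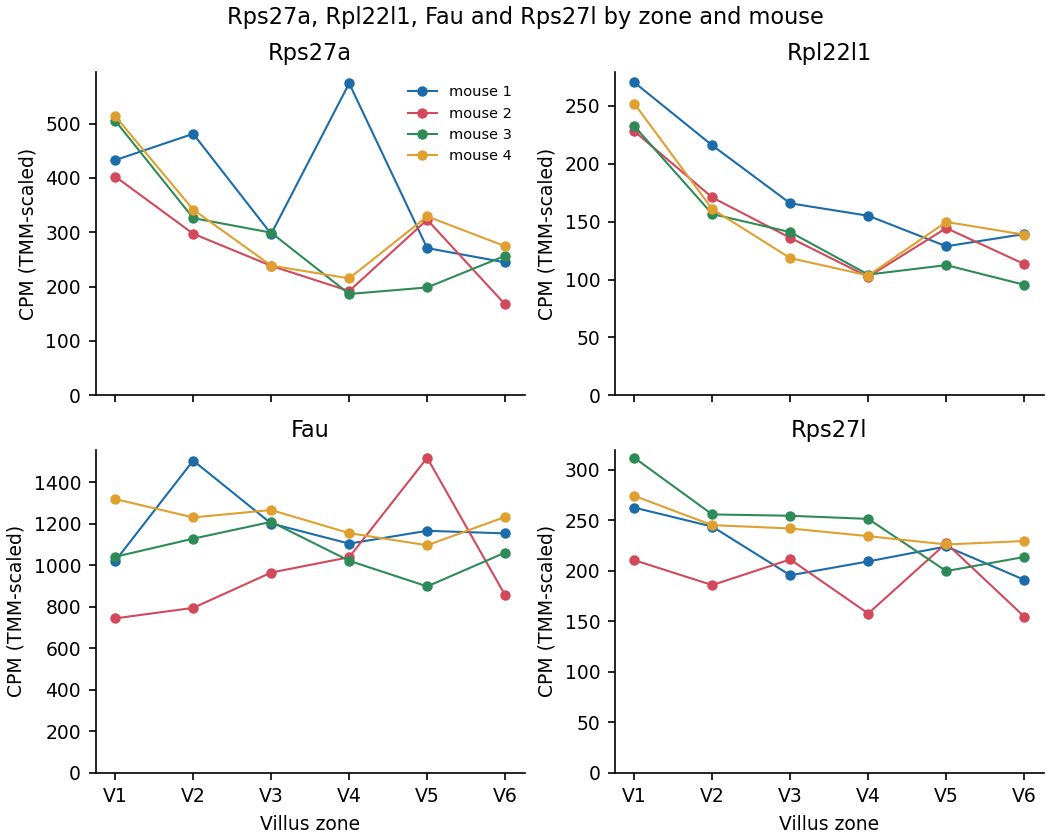
TMM-scaled CPM (vertical axis, from 0) by zone (horizontal axis) and mouse (lines) for 1 member, Rps27a, and 3 genes outside the naming rule. Rps27a and Rpl22l1 were lower in V6 than in V1 in all 4 mice, Fau stayed near 1031 to 1076 CPM on average at both ends, and Rps27l fell less than the family.

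Genes that make or regulate ribosomes were read from lists and described by counts of calls for the slope beside the members' 74 of 75. The background for every list was 22.8% of tested genes lower and 22.1% higher. Among 19 other TOP messengers, which code for translation factors and related proteins, 15 fell and none rose (median slope -0.13). Eif3l, a subunit of initiation factor eIF3, went from 173 ± 25.4 to 89.9 ± 6.34 CPM, with a slope of -0.17 ± 0.029 (SE), edgeR adjusted p = 3.52e-05. Eef1g, a subunit of the elongation factor eEF1 complex, went from 454 ± 63.6 to 227 ± 29.3 CPM, with a slope of -0.18 ± 0.034 (SE), adjusted p = 1.84e-04. Npm1, a nucleolar chaperone that is also among the biogenesis genes, went from 168 ± 57.8 to 75.9 ± 6.08 CPM, with a slope of -0.21 ± 0.039 (SE), adjusted p = 1.09e-04. Of 51 tested ribosome biogenesis factors, 32 fell and 2 rose (median -0.17). The box H/ACA snoRNP protein gene Nop10 fell from 152 ± 12.3 to 63.4 ± 6.53 CPM, edgeR adjusted p = 1.05e-05. The 2 that rose were Sbds and Eif6, where 22.1% of all tested genes rose. SBDS helps release the anti-association factor eIF6 from the new large subunit, and a change of this step as a whole was not tested. Sbds went from 48.8 ± 13.4 to 95.4 ± 13.1 CPM, with a slope of 0.22 ± 0.030 (SE), edgeR adjusted p = 1.95e-06. Eif6 went from 357 ± 15 to 584 ± 57.3 CPM, with a slope of 0.16 ± 0.021 (SE), adjusted p = 2.99e-06. In each of the 4 mice, V6 was above V1 for both genes.

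Of 9 tested genes of RNA polymerase I and its factors, which make ribosomal RNA, 4 fell and none rose (median -0.078). Taf1c went from 157 ± 16.3 to 80.1 ± 5.77 CPM, with a slope of -0.18 ± 0.032 (SE), edgeR adjusted p = 7.53e-05, and Polr1c from 28.5 ± 3.18 to 16 ± 3.91 CPM, adjusted p = 0.0077. Cd3eap, a subunit gene at low level, went from 7.90 ± 3.18 to 2.30 ± 1.17 CPM, adjusted p = 0.0116. Of 25 tested genes of mTORC1 signalling and TOP control, 2 fell and 3 rose (median -0.035), fewer than the background share in either direction. Deptor, an inhibitor of mTOR, fell with a slope of -0.17 ± 0.039 (SE), edgeR adjusted p = 0.00135. Mtor, the kinase itself, rose from 5.81 ± 1.96 to 11.3 ± 3.58 CPM, adjusted p = 0.00366. Rps6kb2, which codes for a kinase of ribosomal protein S6, rose with a slope of 0.12 ± 0.040 (SE), adjusted p = 0.0202.

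In the Myc network, 8 genes were tested, 2 fell and 4 rose (median 0.072, background 22.8% lower and 22.1% higher). Myc, a transcription factor known to drive ribosome production, had 42.2, 77.2, 13.6 and 22 CPM in V1 and 10.9, 13.4, 7.78 and 6.52 in V6 of mice 1 to 4. It fell with a slope of -0.39 ± 0.11 (SE), edgeR adjusted p = 0.0101, and was lower in V6 than in V1 within each mouse. The obligate partner of Myc, Max, went from 84.8 ± 7.21 to 252 ± 61.9 CPM, with a slope of 0.33 ± 0.029 (SE), adjusted p = 5.13e-09. Mxd1 and Mxi1, repressors that compete with Myc for Max, rose with slopes of 0.36 ± 0.036 (SE) and 0.30 ± 0.025 (SE), edgeR adjusted p = 4.08e-08 and 1.68e-09. Proteins of the mitochondrial ribosome, which serves the organelle's own messengers, were measured in 75 tested genes. Of these 53 fell and none rose, with a median slope of -0.098 against -0.18 for the cytosolic members. The difference between the 2 families was not tested.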

How the data were processed

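The authors deposited raw UMI counts per gene for 24 libraries. Per the labels' protocols, jejunal cells were stained for CD73 and CD26, sorted, and made into mcSCRB-seq libraries of polyadenylated RNA. The tool bcl2fastq (version 2.15.0.4) and the build GRCm38 are named in the submitters' processing notes. For the aligner and for reads with several matches, nothing is stated in the sources used here. A deposited column headed as an i7 barcode, which is not a measured value, splits the libraries into sets of 7, 5, 6 and 6. The header does not say that a set is a sequencing pool.

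Zones were compared in R 4.3.3 with edgeR 4.0.16 over all 24 libraries. Genes passed filterByExpr (minimum count 10, minimum total 15), libraries were scaled by TMM, and a robust quasi-likelihood model held a mean per zone (18 residual degrees of freedom). Slopes treat the 6 zones as equally spaced. Adjusted p-values are Benjamini-Hochberg over 9328 genes within a contrast. The test was tried on simulated counts with 200 changed genes. Coordinates are from GENCODE on GRCm38, and sequences from RefSeq on GRCm38.p6. The members and lists were chosen with earlier results of these data known.

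The rule for named members took the 5 most abundant, the 5 steepest and 5 shallowest slopes, any not called, and Rplp0, Rplp1, Rplp2, Rpsa, Rps27a and Rps6. For each list it took the 3 genes with the smallest adjusted p, and the tested paralogues. Other genes named beside a count were chosen after their values were seen. Some genes that the rule selects are left out by name.

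Mouse numbers pair the libraries, since zones with the same number come from the same animal. Deviations from zone means correlated within a mouse with a mean r of 0.42, above 0.1 in 60 of 60 pairs (lowest 0.184). The model with mouse as a block had 15 residual degrees of freedom. Other alternatives were DESeq2 1.42.0 (size factors and test), total UMI scaling, TMM without the members or without goblet genes, no filter, limma-voom (limma 3.58.1), leaving out a mouse, and fewer zones. The last with the block, and leaving out V4 and V5 of mouse 4, were chosen after seeing the data.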

Additional observations from a re-analysis of the deposited data

Results flagged for a closer look

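For each of the named members and summed values, the highest or lowest of the 4 mice in a zone was compared with the other 3 by Dixon's criterion. Of 108 groups examined, 7 had such a distant library, and chance gives about 1 in 20, so a number near this arises by chance. The groups share libraries and are not independent. Rpl18 had 459 CPM in V1 of mouse 4, where the other mice had 344 to 361, and Rpsa had 536 CPM in the same library against 371 to 394. Rps26 had 2255 CPM in V2 of mouse 1 against 1334 to 1441. Rps27a had 574 CPM in V4 of mouse 1 against 186 to 215, the farthest of the 7 in fold. In mouse 3 values were low: Rpl7a had 179.8 CPM in V4 against 248 to 251, Rpsa had 172 in V4 against 234 to 244, and Rps6 had 118 in V5 against 215 to 219.9. Of the 7, 3 were low values of mouse 3, the mouse in which 60 of 75 members had their lowest average. Whether these are related was not tested.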

How the results depend on the processing

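The count of members called for the slope stayed between 70 and 75 under other scalings, tests and filters and without single mice. In these fits 11.6% (no filter) to 39.6% (total UMI scaling) of all tested genes were called lower. The count of members fell to 15 over V2 to V6 (66 with mouse as a block) and to 0 over V3 to V6 with or without the block. The share of all tested genes called lower fell too, from 22.8% to 2.85% over V2 to V6 (13.3% with the block) and 0.0231% over V3 to V6 (0.868%). The block raised V2 against V1 from 0 to 30 calls, V3 against V2 from 0 to 9 and the relative slope from 0 to 3. Over the 6 zones it moved no other count of members by over 1.5 times. DESeq2 raised V2 against V1 to 2. Why these counts move was not tested, beyond the smaller number of libraries with fewer zones. Without single mice, V6 against V1 had 68 to 70 calls. The share of all tested genes called lower there was 10.6% to 15.7%, against 18.6% with all mice, and 13.6% to 17.4% were higher. V4 against V1 had 57 to 70 calls, and each single step, V6 against V4 and the relative slope 0. For these contrasts the share of all tested genes without single mice was not counted. The summed share in V6 minus that in V1 was -4.00 percentage points, between -4.30 and -3.88 without single mice, and -4.62 with goblet and mitochondrial transcripts left out of the total. Scaling by total UMIs moved the median of all genes for V6 against V1 to -0.33 and that of the members to -1.30, a distance of -0.97 as in TMM. It split the calls for the slope over all genes into 3692 lower and 1225 higher, from 2126 and 2063. Of 17 named members, Rps12 reversed over V3 to V6, with a slope of 0.0282 (0.0263 with the block), not past the threshold. Rplp1 passed with the block (adjusted p = 0.0140 by edgeR), by total UMIs (0.0103), without mouse 2 (0.0302) and without V4 and V5 of mouse 4 (0.0495). Rpl35 was not called without the filter (0.0776) or without V4 and V5 of mouse 4 (0.0654). Over V2 to V6, 15 of the 17 lost their call, 4 with the block. Counts cover reads as the authors assigned them, the zones V1 and V2 also hold more goblet transcripts, and 4 mice limit the precision of single steps.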
